A study of Mus musculus with 5 samples.

Results

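The Gimap genes encode the GTPases of the immunity-associated proteins, a family of guanine-nucleotide-binding proteins. The 8 mouse members Gimap1, Gimap3, Gimap4, Gimap5, Gimap6, Gimap7, Gimap8 and Gimap9 were taken through the RefSeq accession of each probe, among 20022 named genes with a probe. They were read by 10 probes, 3 for Gimap4 and 1 for each other member. All 10 probes were well above background on all 5 arrays, so no member was lost to the filter on dim probes. One-colour microarrays were hybridised with RNA of natural killer T (NKT) cells, which are T cells specific for lipids held by the surface molecule CD1d. The cells were sorted as CD3e-positive, CD1d-tetramer-positive cells after magnetic enrichment of T cells from 10 pooled thymi per sample. There were 2 samples from mice that lack interleukin-15 (genotype IL15-/-, here IL15ko) and 3 from wild-type mice, all on the C57BL/6 background, with no treatment. The labels give neither age nor sex, and the pooling hides the spread between animals.

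Gimap proteins share a GTP-binding domain of the AIG1 type, occur mainly in lymphocytes and sit mostly on membranes inside the cell. Several members are needed for lymphocytes to survive outside the bone marrow and thymus, and mice without Gimap5 have few peripheral T cells, NK cells and NKT cells. Interleukin-15 is a survival cytokine of NK cells, memory T cells and the NKT1 subset, and acts through JAK kinases and STAT5.

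Il15 itself, the deleted gene, had a probe flagged as well above background on 0 of the 5 arrays, so it could not be used to check the labels. The T-cell markers were present, with all 8 NKT and T-cell markers well above background on all arrays. The IL15ko 2 array was dim, with 33.9% of probes well above background (the flag of the scanning software for a detected spot), against 45.2% on IL15ko 1 and 44.6% to 49.6% on the wild-type arrays. Wild-type 1 and 2 were closer to each other than other arrays of a group. The robust SD, over the tested genes, of the log2 difference between 2 arrays was 0.381 for the IL15ko pair, 0.170 for wild-type 1 and 2, and 0.344 and 0.376 for wild-type 3 against these. The labels do not say that replicates came from separate pools. The p-values set each difference against the scatter among these 5 arrays. That scatter may be technical, so the p-values may not carry over to other animals.

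All 8 Gimap genes had lower mean signals in IL15ko than in wild-type NKT cells, as did 48.6% of all tested genes, and 3 of them, Gimap3, Gimap5 and Gimap8, passed the test as lower. These 3 fell to about 41% to 51% of the wild-type signal. The other 5 had log2 differences from -1.06 to -0.24 and did not pass. The call was limma's moderated test over 11990 genes with a Benjamini-Hochberg adjusted p under 0.05, and it called 3.58% of all tested genes lower and 3.75% higher. The median log2 difference (IL15ko minus wild-type) of the 8 members was -0.80, beside 0.015 over all tested genes. In bulk samples fewer cells of a type and less RNA per cell cannot be told apart. All values below are log2 signals relative to the array's 75th percentile, and so can be compared between arrays but not between genes.

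**Figure D1:**
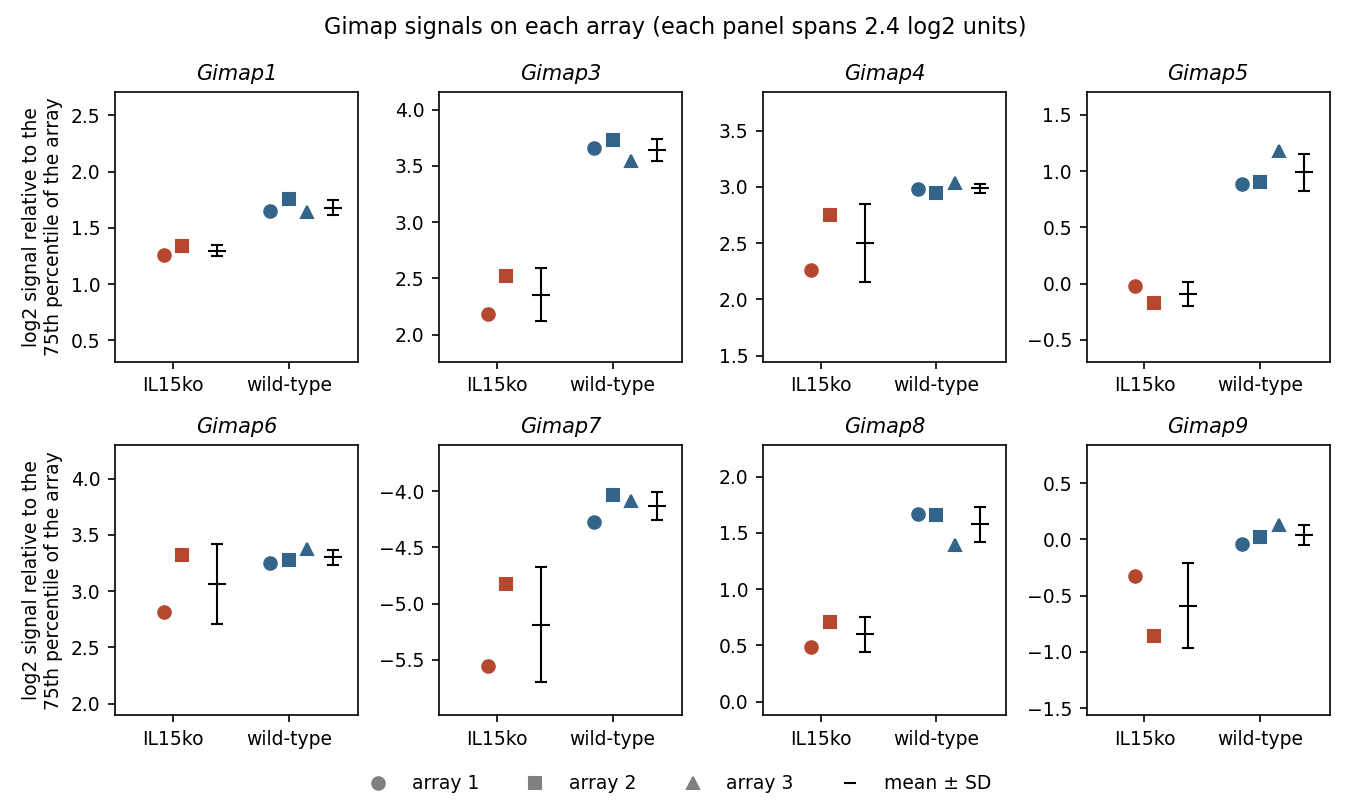
Log2 signal of each Gimap gene on each array, relative to the 75th percentile of that array, with IL15ko arrays left of wild-type arrays. Points are single arrays, with 1 shape for each replicate number, and the bar beside them is the mean with its SD (n = 2 IL15ko, n = 3 wild-type). The groups are separate in 7 panels and overlap in that of Gimap6, where IL15ko 2 lies at 3.32 among the wild-type arrays.

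Gimap5, the member best known for lymphocyte survival, had log2 signals of -0.02 and -0.17 on IL15ko arrays 1 and 2, against 0.89, 0.91 and 1.18 on wild-type arrays 1 to 3. Both IL15ko arrays lay about 1 log2 unit below the lowest wild-type array. The mean was -0.10 ± 0.11 in IL15ko (SD, n = 2) and 0.99 ± 0.16 in wild-type (SD, n = 3). The log2 difference was -1.09 ± 0.15 (SE), a 2.12-fold lower signal (95% confidence interval 1.62 to 2.78, limma adjusted p = 0.0228).

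Gimap3, the closest relative of Gimap5 and a gene that in the mouse affects the sorting of mitochondrial DNA in leukocytes, showed the largest difference in the family. Its log2 signals were 2.19 and 2.52 on the IL15ko arrays, against 3.66, 3.73 and 3.54 on the wild-type arrays. The distance between the groups was about 1 log2 unit at its narrowest, while the IL15ko arrays spanned 0.33. The log2 difference was -1.29 ± 0.16 (SE), or 2.45-fold lower (95% confidence interval 1.85 to 3.23, limma adjusted p = 0.0184). The reference table lists Gimap5 as an older name of Gimap3. The probes were told apart by accession, but since both genes are related copies a probe may bind both transcripts and the split between them is uncertain.

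Gimap8 encodes a larger protein with several GTP-binding domains. It had log2 signals of 0.49 and 0.71 on the IL15ko arrays, against 1.67, 1.66 and 1.39 on the wild-type arrays. Its log2 difference was -0.98 ± 0.16 (SE), a 1.97-fold lower signal (95% confidence interval 1.49 to 2.60, limma adjusted p = 0.0306). The groups did not overlap, and wild-type 3 was the lowest of the wild-type arrays here, whereas it was the highest for Gimap5.

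These 3 calls rest on few arrays. Without wild-type 1 the adjusted p was 0.0931 for Gimap3, 0.102 for Gimap5 and 0.141 for Gimap8, and without wild-type 2 it was 0.0789, 0.0856 and 0.122. Without IL15ko 1 it was 0.0538, 0.0643 and 0.0846. Without IL15ko 2 Gimap3 kept its call at 0.048, while Gimap5 had 0.106 and Gimap8 0.094. With wild-type 1 and 2 averaged into 1 sample, it was 0.078, 0.0861 and 0.124. The log2 differences themselves stayed between -1.46 and -1.12 for Gimap3, -1.16 and -0.94 for Gimap5 and -1.09 and -0.87 for Gimap8 over all 17 alternatives.

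Among the members that did not pass, Gimap7 had the widest spread. Human GIMAP7 speeds the GTP hydrolysis of its relative GIMAP2. The mouse gene had log2 signals of -5.55 and -4.83 on the IL15ko arrays, against -4.27, -4.03 and -4.08 on the wild-type arrays. The groups did not overlap, but the IL15ko arrays differed by 0.72 (SD 0.51, n = 2). The log2 difference was -1.06 ± 0.24 (SE, limma adjusted p = 0.0669), close in size to that of Gimap5. Its processed signal before scaling was 28.8 and 15.5 on the IL15ko arrays, against 59.0, 54.1 and 115 on the wild-type arrays. With a background correction that adds an offset of 50 (normexp) the log2 difference was -0.10.

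Gimap9 had log2 signals of -0.32 and -0.86 on the IL15ko arrays, against -0.04, 0.02 and 0.13 on the wild-type arrays. The groups did not overlap. The log2 difference was -0.63 ± 0.20 (SE, limma adjusted p = 0.119), and it was -0.36 without IL15ko 2 and -0.89 without IL15ko 1.

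Gimap1 is needed in mice for mature T and B cells. It had log2 signals of 1.26 and 1.34 on the IL15ko arrays, against 1.65, 1.76 and 1.64 on the wild-type arrays. These groups were tight and separate, and the difference was small. It was -0.38 ± 0.12 (SE), or 1.30-fold lower (95% confidence interval 1.05 to 1.62), with a limma adjusted p of 0.126.

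Gimap4, whose loss in mice slows the death of T cells that have received an apoptotic signal, was read by 3 probes of the same accession. Its brightest probe, A_55_P2147831, had log2 signals of 2.26 and 2.75 on the IL15ko arrays, against 2.99, 2.94 and 3.03 on the wild-type arrays, a log2 difference of -0.48 ± 0.18 (SE, limma adjusted p = 0.169). It was -0.24 without IL15ko 1 and -0.73 without IL15ko 2. The probe A_55_P1976376 had -0.12 and 0.22 in IL15ko, against 0.42, 0.36 and 0.40 in wild-type, a log2 difference of -0.34. Both probes thus had almost flat wild-type values. The third, A_55_P1976387, had 0.05 and -0.47 in IL15ko, against 1.12, 1.07 and 0.32 in wild-type. Its wild-type 3 value was the lowest of the wild-type arrays and lay closer to IL15ko 1 than to either other wild-type array, and its log2 difference of -1.05 was the largest of the 3. In a fit of 15570 named probes, in which 3.27% were called lower, the 3 Gimap4 probes had limma adjusted p-values of 0.181, 0.232 and 0.117. The called probes of the family in that fit were 3, those of Gimap3, Gimap5 and Gimap8.

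Gimap6, a partner of the autophagy protein GABARAPL2, showed the smallest difference. Its log2 signals were 2.82 and 3.32 on the IL15ko arrays, against 3.25, 3.28 and 3.38 on the wild-type arrays. IL15ko 2 lay above both wild-type 1 and wild-type 2. The log2 difference was -0.24 ± 0.19 (SE), with a 95% confidence interval from -0.71 to 0.23 and a limma adjusted p of 0.449. Without IL15ko 1 it was 0.015, so the direction of Gimap6 rests on that array.

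**Figure D2:**
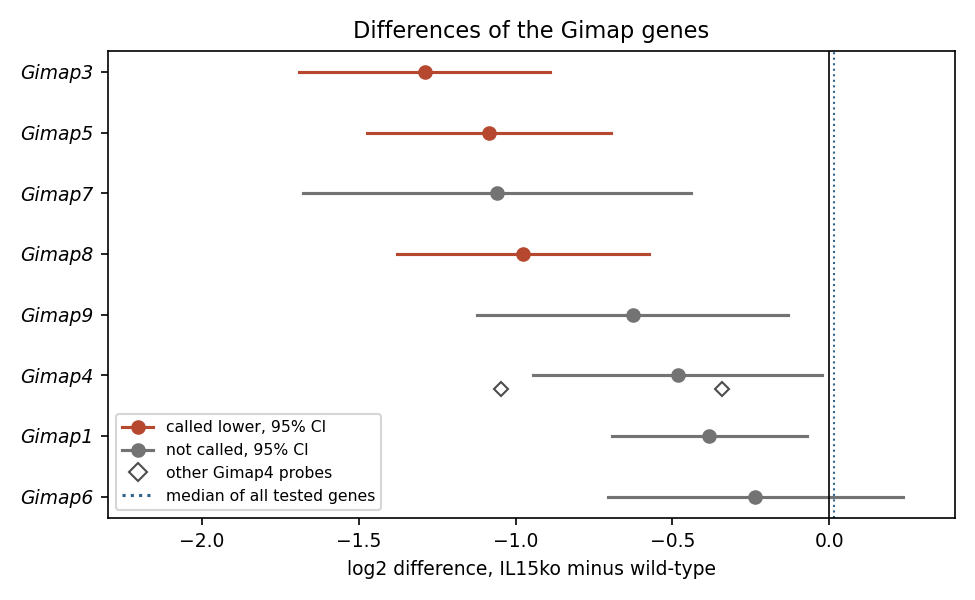
Log2 difference (IL15ko minus wild-type) of each Gimap gene, with its 95% confidence interval from limma. Diamonds are the other Gimap4 probes, at -0.34 and -1.05, and the dotted line is the median of all tested genes, 0.015. Gimap3, Gimap5 and Gimap8 were called lower, and the interval of Gimap6 crosses 0.

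The groups did not overlap, with both IL15ko arrays lower, in 7 of the 8 members, as in 22.1% of all tested genes. In 0 members did both IL15ko arrays lie above all wild-type arrays, as they did in 25.1% of all tested genes. An exact two-sided permutation test of the absolute difference gave p = 0.1 for these 7, the smallest value that 2 arrays against 3 can give, and p = 0.3 for Gimap6. Of the 2 IL15ko arrays, IL15ko 1 was the lower for 6 members and IL15ko 2 for Gimap5 and Gimap9. Differences between members were then compared within arrays. The log2 difference (IL15ko minus wild-type) of Gimap3 minus that of Gimap6 was -1.05. Over the 28 pairs of members the smallest exact permutation p was 0.1, the smallest these arrays can give, or 0.187 after Benjamini-Hochberg adjustment, so no pair passed.

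The 8 members lie in a row on chromosome 6, in the order Gimap8, Gimap9, Gimap4, Gimap6, Gimap7, Gimap1, Gimap5 and Gimap3 of the GRCm38.p6 annotation. The called members sit at both ends of the row. Of the 20 nearest protein-coding genes, 10 on each side, 13 were tested, 6 had a probe that no array detected and 1, Gm7932, had no named probe. Among the 13, 3 were called higher and 1 lower, beside 3.75% and 3.58% of all tested genes. The next genes after Gimap3 are Tmem176b and Tmem176a, which encode related membrane proteins of intracellular vesicles. Tmem176b had a mean log2 signal of -0.04 ± 0.04 in IL15ko (SD, n = 2) and -1.07 ± 0.05 in wild-type (SD, n = 3), a log2 difference of 1.03 ± 0.12 (SE, limma adjusted p = 0.0172). Tmem176a had a log2 difference of 1.47 ± 0.17 (SE, limma adjusted p = 0.0172). Signals on the 2 sides of that boundary thus differed in opposite directions, down for Gimap3 and up for Tmem176b. Tmem176b was called in 8 of 17 alternatives and Tmem176a in 11 of 17, with the same sign in all 17. With the mean of its probes in place of the brightest, Tmem176b had a log2 difference of 0.75 (limma adjusted p = 0.0623). Without wild-type 1 the limma adjusted p was 0.101 for Tmem176b and 0.0878 for Tmem176a, without wild-type 2 it was 0.0816 and 0.0671, and without IL15ko 2 it was 0.0711 and 0.0619. Without IL15ko 1 that of Tmem176b was 0.0522.

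Further along on that side, Igf2bp3, which encodes an mRNA-binding protein, was higher by 2.35 ± 0.31 on the log2 scale (SE, limma adjusted p = 0.02), with 2 of the 3 wild-type arrays well above background. With the offset of 50 its log2 difference was 1.19 (limma adjusted p = 0.232). On the Gimap8 side, Sspo, which encodes SCO-spondin, was at least 1.93-fold lower. Its limma adjusted p of 0.0394 belongs to the fitted difference, which uses undetected IL15ko values, and not to this bound. Sspo passed the filter on dim probes only through the wild-type arrays. It was not well above background on either IL15ko array, so only a bound can be given, and the bound holds for the reported processing. With the offset of 50 its log2 difference was -0.11 (limma adjusted p = 0.885). Igf2bp3 lost its call without either IL15ko array (limma adjusted p = 0.0716 without IL15ko 1 and 0.102 without IL15ko 2) and without wild-type 1 (0.0878). Sspo lost its call without IL15ko 1 (0.0681) and without each wild-type array (0.0791 to 0.124). The closest measured gene on that side, the zinc-finger gene Repin1, had a log2 difference of -0.25 ± 0.19 (SE, limma adjusted p = 0.435), and 0.12 with the offset of 50. Zfp775, which lies between Repin1 and Gimap8, was not detected.

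**Figure D3:**
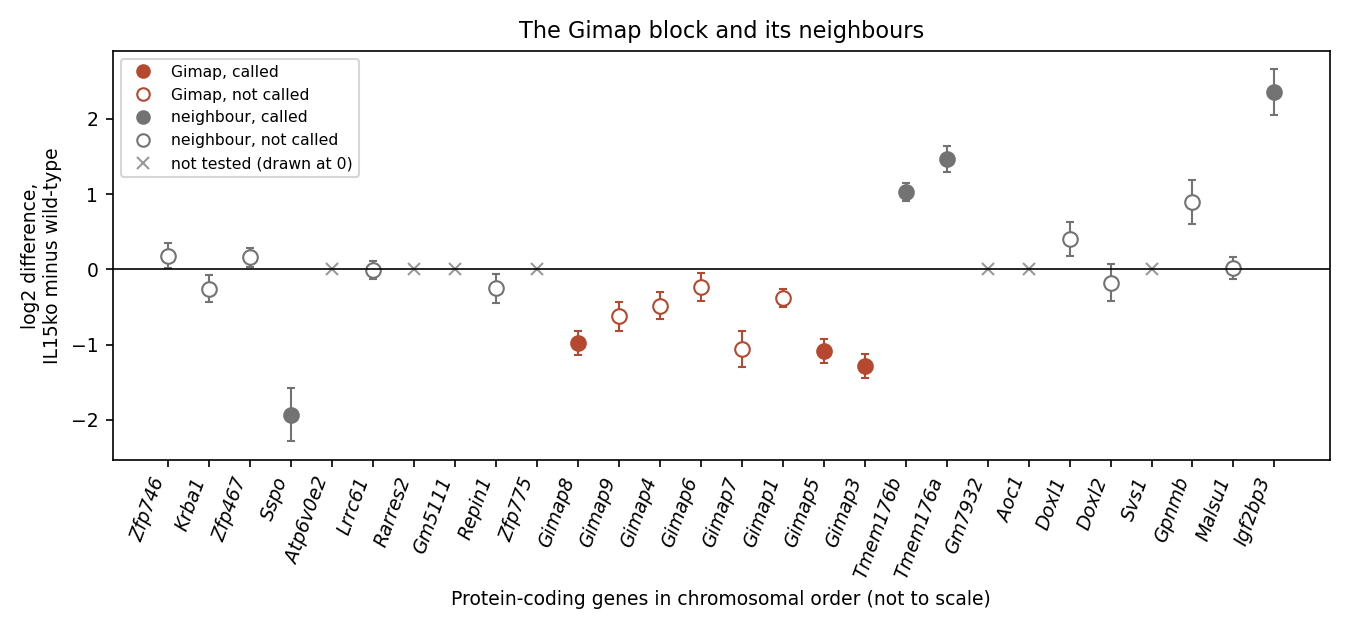
Log2 difference (IL15ko minus wild-type) of the Gimap genes and their 10 nearest protein-coding genes on each side, in chromosomal order, with limma's standard error. Filled points were called at an adjusted p under 0.05, and crosses are genes that were not tested, drawn at 0. The Gimap genes lie between -1.29 and -0.24, next to Tmem176b at 1.03 and Tmem176a at 1.47. Sspo, drawn at its fitted value, has only a bound.

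The promoter windows of the members are shown because all 8 members had lower signals in IL15ko and because STAT5 acts downstream of interleukin-15. They are RefSeq windows of GRCm38.p6, from 250 bases before to 50 after the start of transcription, printed 5′ to 3′ on the strand of the gene. The windows of the 3 called genes and of Gimap6, the member with the smallest difference, are given. Gimap3 is at chr6:48770802-48771101 on the minus strand, Gimap5 at chr6:48745947-48746246 on the plus strand, Gimap8 at chr6:48647111-48647410 on the plus strand, the second of its 2 listed starts, and Gimap6 at chr6:48708195-48708494 on the minus strand. Capitals mark matches to the STAT pattern TTCNNNGAA.
Gimap3: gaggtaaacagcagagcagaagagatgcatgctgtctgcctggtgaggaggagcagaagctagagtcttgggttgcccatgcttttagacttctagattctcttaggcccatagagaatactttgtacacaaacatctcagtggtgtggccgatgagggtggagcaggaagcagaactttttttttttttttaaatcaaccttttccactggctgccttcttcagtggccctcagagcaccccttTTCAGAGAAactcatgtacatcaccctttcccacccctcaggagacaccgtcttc
Gimap5: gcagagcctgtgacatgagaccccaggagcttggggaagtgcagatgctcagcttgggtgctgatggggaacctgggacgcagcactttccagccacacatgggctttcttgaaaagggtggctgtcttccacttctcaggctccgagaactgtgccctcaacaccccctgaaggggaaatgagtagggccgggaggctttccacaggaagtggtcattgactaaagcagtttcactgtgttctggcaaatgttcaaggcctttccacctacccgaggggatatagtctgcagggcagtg
Gimap8: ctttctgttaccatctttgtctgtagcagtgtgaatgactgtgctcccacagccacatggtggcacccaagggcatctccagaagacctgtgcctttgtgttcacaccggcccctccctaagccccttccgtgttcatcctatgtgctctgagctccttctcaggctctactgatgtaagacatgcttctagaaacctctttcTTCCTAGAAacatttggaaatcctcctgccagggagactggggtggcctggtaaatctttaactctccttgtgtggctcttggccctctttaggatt
Gimap6: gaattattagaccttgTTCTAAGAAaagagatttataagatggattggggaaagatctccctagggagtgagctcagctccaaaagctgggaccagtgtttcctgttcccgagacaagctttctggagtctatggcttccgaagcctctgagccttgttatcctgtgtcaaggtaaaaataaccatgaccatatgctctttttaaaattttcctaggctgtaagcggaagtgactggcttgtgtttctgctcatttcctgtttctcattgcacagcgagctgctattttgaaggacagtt

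The 9 member windows include 2 overlapping windows of Gimap8, which were counted separately. The STAT pattern was found in 4 of the 9, against 8.3% of the 32851 promoter windows of the same length. It stood in the windows of Gimap3, as TTCAGAGAA beginning 5 bases before the start, Gimap8, as TTCCTAGAA beginning 47 bases before it, Gimap6, as TTCTAAGAA beginning 234 bases before it, and Gimap7, as TTCTTTGAA at base 41 after it. Of the genes called lower, Gimap3 had a match, Gimap8 had one in the second of its 2 windows and none in the first, and Gimap5 had none. Gimap6, with the smallest difference, had one as well. All patterns were searched on both strands, and no match overlapped one of another pattern. The Runx pattern TGTGGT was found in the windows of Gimap1, Gimap4 and Gimap7, 3 of 9, against 16.8% of all windows. The Ets pattern CCGGAAG, the T-box pattern AGGTGTGA and the TCF/LEF pattern CTTTGAT were found in none of the 9, against 8.86%, 1.28% and 3.73% of all windows. A match is a description of the sequence and not evidence of binding, and a part of STAT5 in the Gimap differences was not tested. The 4 printed windows were 43.3% to 55.7% G and C, against a median of 52.7% over all windows. Aligned end to end, the most similar pair of windows of different members, Gimap1 and Gimap3, was 55.9% identical.

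Genes reported to work with Gimap proteins changed in part. Of 9 such genes of the Bcl-2 family and its surroundings, all tested, 1 was called lower, 1 higher and 7 did not pass (median log2 difference -0.26). Over all tested genes 3.58% were called lower and 3.75% higher. The anti-apoptotic gene Bcl2 had a mean log2 signal of -1.23 ± 0.51 in IL15ko (SD, n = 2) and 0.89 ± 0.15 in wild-type (SD, n = 3), and fell by 2.12 on the log2 scale (limma adjusted p = 0.0173). Bak1, which encodes a pore-forming pro-apoptotic protein, rose by 0.81 ± 0.12 (SE, limma adjusted p = 0.0233). Bcl2l11, which encodes BIM, had a log2 difference of -1.28 ± 0.48 (SE, limma adjusted p = 0.169), which was 0.27 with the offset of 50. Without wild-type 1 the limma adjusted p was 0.0858 for Bcl2 and 0.134 for Bak1, and without wild-type 2 it was 0.0733 and 0.111. Bak1 was also not called without IL15ko 1 (0.0662) or IL15ko 2 (0.0885).

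The LC3 and GABARAP family, the autophagy proteins to which the Gimap6 partner belongs, had 5 tested members. Of these, 1 was called lower, 0 higher and 4 did not pass (median log2 difference -0.24), beside 3.58% lower and 3.75% higher over all tested genes. Gabarapl1 had a mean log2 signal of -1.43 ± 0.01 in IL15ko (SD, n = 2) and -0.45 ± 0.06 in wild-type (SD, n = 3), and fell by 0.98 on the log2 scale (limma adjusted p = 0.0184). Gabarapl2 itself had a log2 difference of -0.26 ± 0.12 (SE, limma adjusted p = 0.219), with groups that did not overlap. Gabarapl1 kept its call without wild-type 3 (limma adjusted p = 0.0398) and lost it without any other single array (0.0561 to 0.103).

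Genes of T-cell quiescence and recirculation had calls in the upward direction. Among 15 tested genes, 4 passed as higher and 0 as lower, and 11 did not pass (median log2 difference -0.06). The shares over all tested genes were 3.75% higher and 3.58% lower. Ccr7, a receptor for entry into lymph nodes, rose by 1.67 ± 0.15 (SE, limma adjusted p = 0.0101). Tcf7, a transcription factor gene of early and memory T cells, was 2.14-fold higher (limma adjusted p = 0.0227). Foxo1, a transcription factor gene of naive T cells, rose by 0.69 ± 0.14 (SE, limma adjusted p = 0.0476) and was called in 2 of 17 alternatives. Klf2, which drives genes of thymic exit, had a log2 difference of -0.62 ± 0.14 (SE, limma adjusted p = 0.0661). Il7r, the chain of the IL-7 receptor that carries another survival signal, had one of -0.06 ± 0.15 (SE, limma adjusted p = 0.813). Without wild-type 1 the limma adjusted p was 0.0675 for Ccr7 and 0.102 for Tcf7. Without wild-type 2 it was 0.0572 for Ccr7 and 0.0831 for Tcf7, and Tcf7 was also not called without IL15ko 1 (0.0709) or IL15ko 2 (0.102). Foxo1 lost its call whichever array was left out (0.0682 to 0.188).

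The tested genes outside the family that lay closest to the mean profile of the 8 members over the 5 arrays were Ppp1r9b, which encodes spinophilin, Igsf23, Cpne7, Zswim1 and Adgre5, which encodes the adhesion receptor CD97. Their log2 differences were -0.72, -0.74, -0.81, -0.79 and -0.80, in that order. Their arrays' centred log2 values differed from the mean member profile by a root mean square of 0.0284 to 0.0526, against 0.151 to 0.279 for the members themselves. That profile stood at -0.56 and -0.36 on IL15ko arrays 1 and 2, against 0.27, 0.33 and 0.32 on the wild-type arrays. The 5 genes were picked as the closest of all tested genes outside the family, so their smaller distance follows from that choice. With 5 arrays in 2 groups, this likeness is a description only.

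Markers of other cells moved beside the Gimap genes in part. Of 7 NK-cell markers 5 were tested and all 5, Fcer1g among them, were called lower. Over all tested genes 3.58% were called lower and 3.75% higher. The summed linear signal of the NK-cell list, in which Nkg7 was the brightest gene, was 6.64 to 10.8 in IL15ko and 38.6 to 39.4 in wild-type. NKT cells can also carry NK receptors, and bulk signals do not show which cells express these 5 genes. Without wild-type 1 all 5 lost their call (limma adjusted p = 0.0605 to 0.0878). Of the other NK-cell markers, Ncr1 was detected on no array and Eomes on 1. The part of NK cells, or of NKT cells with NK receptors, in the Gimap differences was not tested. The B-cell genes Cd79a, Ms4a1 and Pax5 were detected on 0 arrays, while 3 of the B-cell markers were tested and 0 called, and the summed signal was 0.368 to 0.376 in IL15ko and 0.239 to 0.276 in wild-type. The endothelial genes Cdh5, Tek, Tie1 and Vwf were likewise detected on 0 arrays, 2 others were tested and 0 called, and the summed signal of that list was 2.08 to 2.49 in IL15ko and 1.26 to 5.11 in wild-type, mostly from Kdr. Of the immature thymocyte genes, Rag1, Rag2, Ptcra, Cd8a and Cd8b1 were also detected on 0 arrays. The 2 others, Dntt and Cd1d1, were well above background on all 5 arrays, and 0 were called. The summed signal of that list, in which Cd1d1 was the brightest gene, was 0.504 to 0.60 in IL15ko and 0.546 to 0.634 in wild-type. Of the myeloid list 3 were tested and Fcer1g was the 1 called, lower. Csf1r, the receptor gene for macrophage colony-stimulating factor, had log2 signals of -2.63 and -3.82 in IL15ko, against -1.14, -0.33 and -1.34 in wild-type, a log2 difference of -2.29 ± 0.46 (SE, limma adjusted p = 0.0509), and was called in 5 of 17 alternatives. With the mean of its probes in place of the brightest probe, Csf1r had a log2 difference of -0.94 (limma adjusted p = 0.185). Itgam had one of 0.70 ± 0.40 (SE, limma adjusted p = 0.312) with its brightest probe. The part of myeloid cells in the Gimap differences was not tested. That list, in which Itgam was the brightest gene, summed to 4.93 to 11.2 in IL15ko and 6.64 to 8.51 in wild-type, with Lyz2 and Adgre1 detected on 0 arrays, and the red-cell list to 0.0224 to 0.0276 in IL15ko and 0.0162 to 0.0379 in wild-type. In the red-cell list 1 gene was tested and 0 called. The NKT and T-cell list itself, with Cd5, Zbtb16 and Slamf6 called higher and 5 genes not called, summed to 90.7 to 97.9 in IL15ko and 91.2 to 93.5 in wild-type.

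**Figure D4:**
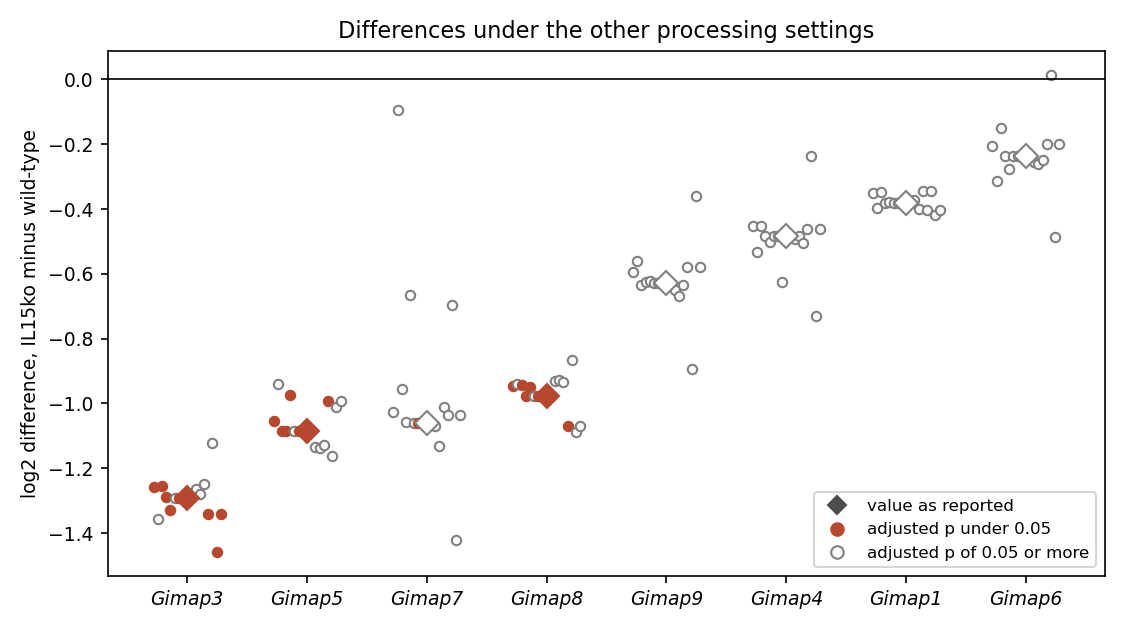
Log2 difference (IL15ko minus wild-type) of each Gimap gene as reported (diamonds) and under 17 other settings (circles), filled where the adjusted p was under 0.05. Gimap3 stays between -1.46 and -1.12, Gimap7 spreads from -1.42 to -0.10 and Gimap6 reaches 0.015 without IL15ko 1.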

How the data were processed

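RNA of 5 samples was hybridised to 1-colour Agilent arrays. The deposited intensities are on a linear scale and, per the file headers, come from Agilent Feature Extraction 10.7.1.1, with background subtraction and detrending inside each array and no scaling across arrays. Limma is named too, in the submitters' processing notes. The authors' deposited value table, also linear intensities (column medians 24.4 and 15.7 in IL15ko, 25.2, 22.6 and 26.0 in wild-type), was neither centred nor logged, its background setting is unknown, and it served as an alternative. Control and outlier spots were left out, and 0 spots were saturated. Accessions were matched to RefSeq genes of GRCm38.p6, which named 26425 of 55681 probes. Processed signals were put on the log2 scale, and the 75th percentile of the 18519 probes detected on every array was subtracted within each array. Each gene was represented by its brightest probe and tested if at least 2 arrays detected it. Groups were compared with limma 3.58.1 in R 4.3.3 (lmFit, eBayes, 3 residual and 2.28 prior degrees of freedom) with Benjamini-Hochberg adjustment. The fit was also run on simulated data with independent noise for each gene. That run cannot show how the calls hold under array-wide effects, which it left out. Exact tests used scipy 1.17.1 and alignments Biopython 1.88. All arrays were on 1 slide and scanned in 1 run, so neither was a batch. The number of arrays limits the precision. The members, lists and motifs were chosen with earlier results of these data known. Genes were named by rule, namely all members, their neighbours, called members of each list and the closest profiles, plus genes needed to describe a count. Some list members are not reported here.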

Additional observations from a re-analysis of the deposited data

How the results depend on the processing

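All 8 Gimap genes stayed lower in IL15ko in 16 of the 17 alternatives, the exception being Gimap6 without IL15ko 1. The calls were less stable. After normexp background correction with the offset of 50 (run on spot medians, since the files hold no spot mean), 0 members were called lower and the members' median log2 difference was -0.55, while the median of all genes moved to 0.22. That setting called 0 genes higher and 1 lower, and Zswim1, named for its profile, turned to 0.154 on the log2 scale. Without the filter on dim probes 0 members were called, with 0 genes higher and 5 lower, over 20005 genes tested. The authors' deposited table gave 3 called members and a median of -0.64. Testing every probe, unnamed ones included, called 2 members. With wild-type 1 and 2 averaged, 0 members were called, with 33 genes higher and 63 lower. A trended, robust prior called 815 genes higher and 690 lower and 4 members (Gimap9 in addition), and testing only genes above background on all 5 arrays called 710 higher, 479 lower and 4 members (Gimap7 in addition). Leaving out 1 array called 0 to 3 members, with 1 to 371 genes higher and 8 to 404 lower, against 450 and 429 with all arrays, and the members' median was -0.87 to -0.78. No member was called higher in any of the 17. With the replicate number as a block, 1 member (Gimap3) was called, with 138 genes higher and 241 lower. The labels do not say whether the numbers pair the samples. The deviations of same-numbered arrays from their group mean correlated at -0.129 (IL15ko 1 with wild-type 1) and 0.209 (IL15ko 2 with wild-type 2) over genes. These values cannot decide on pairing, since with 2 IL15ko arrays the deviation of 1 is the mirror image of the other. Slide and scan were not run as blocks. The causes of the lost calls were not tested. The Gimap7 probe was dim but well above background on all 5 arrays. Its log2 difference was -0.10 with the offset of 50 and -0.66 with the authors' deposited table.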
